A study of Mus musculus with 4 samples.

Results

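Glycolytic isozymes are alternative forms of the same glycolytic enzyme that are encoded by separate genes. A set of 10 such genes was examined, out of 21755 protein-coding genes (19 autosomes and X), each found by its symbol in the GENCODE M21 annotation of mm10. It comprised 5 muscle forms (Hk2, Pfkm, Eno3, Pgam2 and Ldha) and 5 other forms of the same steps (Hk1, Pfkl, Pfkp, Eno1 and Pgam1), as textbook knowledge assigns them. The histone mark H3K4me3 was mapped by chromatin immunoprecipitation sequencing (ChIP-seq) in gastrocnemius, the large calf muscle, of female adult B6CASTF1/J mice aged 2 months, hybrids of C57BL/6J and CAST/EiJ. The 4 libraries formed pool E and pool F, each a pool of 2 biosamples with 2 technical libraries, and all carried the same donor label. No treatment, mutant or other tissue was measured, so the values describe 1 condition and no test between conditions could be made. Peaks were deposited as 4 lists, which are the list of pool E, the list of pool F, the pooled list and the replicated list, and values are from the replicated list where no other is named. All 4 lists place peaks on the C57BL/6J reference, and the sequences printed here are of that strain. Per the labels, fragments were 200 to 600 bp long. Read counts are not part of the lists, the depth behind each peak is unknown, and the labels do not state which animals each pool held.

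Glycolysis splits glucose into pyruvate, and vertebrates carry several genes for many of its steps, some of them used mainly in muscle and others in most tissues. Fast muscle such as gastrocnemius draws heavily on this pathway during short bursts of contraction. H3K4me3 sits at the start sites of active or poised genes, and in many cell types it spreads into the body of genes typical of that cell.

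A gene was called marked where at least 1 of its transcription start sites (TSSs) had a peak within 1000 bp, and 69.3% of all protein-coding genes were marked in the replicated list. All 10 isozyme genes were marked there, and also in the list of pool E (background 69.3%), of pool F (background 68.9%) and in the pooled list (background 69.5%). The label of the tissue was checked on muscle markers, of which 6 of 6 were marked in the replicated list (Ckm, Acta1, Des, Mylpf, Tnnt3 and Actn3), while 0 of 6 markers of hepatocytes, heart atrium and neurons were (Alb, Apoa2, Myl7, Nppa, Snap25 and Gad1). At Mylpf and Actn3 the strongest peak had its summit nearest to a TSS of another gene. Gad1, a neuronal gene, had a peak of 348 bp with a signal value of 6.85 in pool E and was also marked in the pooled list. Peaks at most 1000 bp apart were joined into a domain, and the width of a gene's domain is that of the widest one within 1000 bp of its TSSs. The signal value of a gene is the authors' own score of its strongest peak near a TSS, with no stated scale, and it is compared only inside 1 list. Percentiles place a gene among the 15067 marked genes of the replicated list. In bulk tissue, fewer cells of a type and less mark per cell cannot be told apart.

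The muscle forms had the wider H3K4me3 domain at every step where both kinds were present. Their domains measured 4053 to 17986 bp with a median of 7287 bp, against 2070 to 6118 bp with a median of 2858 bp for the other forms. The muscle form was wider in 5 of 5 pairs in each of the 4 lists. Pfkm enters the pairs with both Pfkl and Pfkp, and the pooled and replicated lists gave the same widths for these genes. The Eno3 width includes the starts of neighbouring genes. The 2 ranges overlapped through 1 gene of each kind, since Eno1 at 6118 bp was wider than Pgam2 at 4053 bp. Among the 10 genes 9 were wider than the median marked gene of 2400 bp, the exception being Pfkl, and by construction 50% of marked genes lie above that median. The signal value separated the kinds less, with 39.6 to 61.4 and a median of 55.7 at the muscle forms, against 29.5 to 55.5 and a median of 50.1 at the other forms. In pool F the medians stood the other way, at 47.8 for the muscle forms and 48.2 for the other forms. The replicated muscle median is the value of Eno3, whose summit lies at the start of a neighbour, Pfn1. The highest muscle value, 61.4, is that of a Pfkm peak with its summit nearest to a neighbour, Senp1. The Pfkm peak with its summit nearest a Pfkm TSS had 57.7. The signal value was above the median marked gene of 45.2 at 8 of the 10 genes, where 49.9% of marked genes lie above it. The exceptions were Pgam2 and Eno1. The genes are not replicates of a condition, and no test was run over them.

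**Figure D1:**
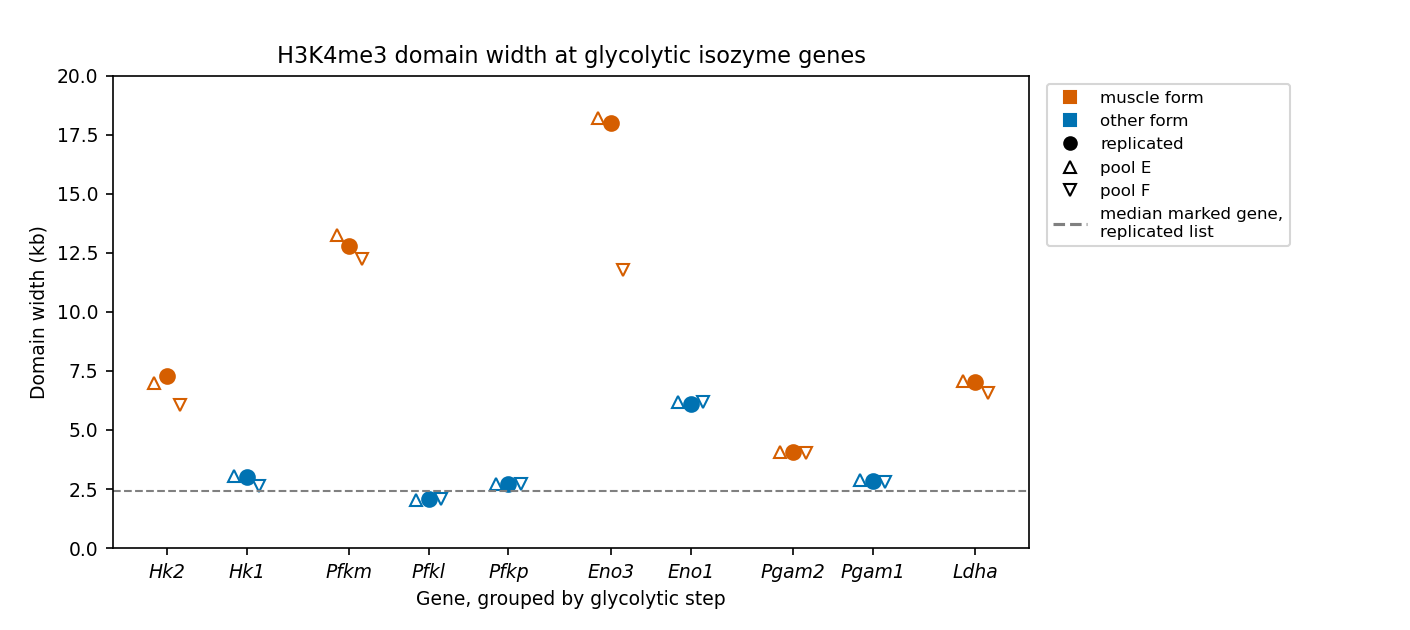
Domain width (kb, vertical axis) of the 10 genes grouped by step (horizontal axis) in the list of pool E (upward triangles), of pool F (downward triangles) and in the replicated list (filled circles), muscle forms in orange and other forms in blue. Within each step the orange symbols lie above the blue ones, and only Pfkl lies below the dashed median of 2.4 kb.

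Hexokinase phosphorylates glucose in the first step. Hk2 encodes the insulin-responsive hexokinase of muscle and fat, and Hk1 the form found in most tissues. The Hk2 domain was 6999 bp wide (pool E) and 6075 bp (pool F), with a mean of 6537 ± 653 bp (SD, n = 2), against 3032 bp (pool E) and 2613 bp (pool F) at Hk1, with a mean of 2823 ± 296 bp (SD, n = 2). The domain was thus wider at Hk2 than at Hk1 in both pools. In the replicated list Hk2 measured 7287 bp (percentile 95.1) and Hk1 3012 bp (percentile 66.1), a ratio of 2.42. The signal value of Hk2 was 57.3 in pool E and 47.8 in pool F, against 50.2 and 43.7 at Hk1. Hk2 was thus higher inside each list.

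The extra width at Hk2 lay inside the gene. Its domain ran 849 bp upstream and 6437 bp downstream of the start site, against 818 bp upstream and 2193 bp downstream at Hk1, where the median marked gene had 795 and 1427 bp. Hk2 carried 11 peaks over its gene body more than 1000 bp from every TSS of its own, some of them joined to the promoter domain. They had widths of 186 to 2613 bp, signal values of 2.02 to 13.3 and 9509 bp in all. The widest of them had its summit 445 bp from a TSS of another gene, Gm17034. Hk1 carried 4 gene body peaks away from its own TSSs, with signal values of 2.74 to 7.64 and 2657 bp in all. Peaks covered 30.02% of the 49430 bp Hk2 gene and 5.10% of the 111054 bp Hk1 gene, against a median of 7.88%. Joining over gaps of up to 3000 bp would bring more gene body peaks into the Hk2 domain, among them the one near Gm17034. The width difference of 4275 bp would rise to 21510 bp. Of 12 annotated start sites of Hk1 only 1 was near a peak, at position 62340542 of chromosome 10, and 3 start sites of the antisense gene Hk1os lay inside the same domain.

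Phosphofructokinase commits sugar to glycolysis, and Pfkm, Pfkl and Pfkp encode its muscle, liver and platelet forms. Pfkm had a domain of 13272 bp (pool E) and 12245 bp (pool F), with a mean of 12759 ± 726 bp (SD, n = 2). At Pfkl the domain measured 2039 bp (pool E) and 2099 bp (pool F), and at Pfkp 2726 and 2707 bp. In the replicated list Pfkm (12767 bp, percentile 99.1) was 6.17 times as wide as Pfkl (2070 bp, percentile 37.8) and 4.73 times as wide as Pfkp (2702 bp, percentile 58.9). The platelet form therefore sat near the median marked gene and the liver form below it. The differences of 10697 bp from Pfkl and 10065 bp from Pfkp were larger than that of 1027 bp between the pools at Pfkm. With 2 pools under the same donor label this is a description and not a test.

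The wide domain of Pfkm stood at its downstream start site and not at the upstream one. Around the downstream start at position 98108466 of chromosome 15, a peak of 7205 bp with a signal value of 57.7 was followed by weaker peaks of 3766 bp (11.7) and 837 bp (3.09), and the domain reached 12237 bp into the gene. The upstream starts lay in a separate peak of 2104 bp with a signal value of 61.4, whose summit was 159 bp from a TSS of Senp1, a SUMO protease gene transcribed the other way, and 448 bp from a Pfkm TSS. This peak held 6 TSSs of Senp1 and 1 of the antisense gene Gm26513. A summit nearest to the TSS of another gene was found at 13.8% of marked genes. RefSeq gives Pfkm 4 promoter windows, each from 250 bases before to 50 after a RefSeq start. The one nearest the downstream start and the one at the upstream start are shown, the downstream one first, to set the starts of the wide domain and of the separate peak side by side, with the CG dinucleotides in capitals.
Pfkm, chr15:98108221-98108520 (plus strand): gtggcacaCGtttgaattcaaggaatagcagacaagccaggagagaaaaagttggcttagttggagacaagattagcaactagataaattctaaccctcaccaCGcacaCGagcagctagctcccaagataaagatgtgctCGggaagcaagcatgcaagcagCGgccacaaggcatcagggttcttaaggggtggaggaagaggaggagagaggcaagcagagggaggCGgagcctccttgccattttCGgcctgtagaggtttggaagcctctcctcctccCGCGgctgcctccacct
Pfkm, chr15:98092339-98092638 (plus strand): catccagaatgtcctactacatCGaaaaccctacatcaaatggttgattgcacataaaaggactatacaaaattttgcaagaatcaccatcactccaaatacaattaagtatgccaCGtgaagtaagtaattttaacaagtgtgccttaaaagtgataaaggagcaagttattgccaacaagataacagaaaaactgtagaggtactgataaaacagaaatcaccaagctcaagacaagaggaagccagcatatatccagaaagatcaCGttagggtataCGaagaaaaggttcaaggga
The downstream window held 9 CG dinucleotides and 53.7% G and C, the upstream one 4 and 36.7%. The 2 windows not shown also lay downstream and held 12 CG dinucleotides with 59% G and C and 4 with 53%, so the CG count did not separate the upstream window from all downstream ones. All sequences here are from RefSeq on GRCm38.p6, the build of mm10, where the promoters of 10 of 10 genes were found.

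The signal values of the phosphofructokinase genes depended on the pool and on the start site counted. Pfkm had 64.8 in pool E and 57.4 in pool F, against 58.8 and 58.1 at Pfkl, so Pfkm was higher by 5.999 in pool E while its difference from Pfkl was -0.683 in pool F. Against Pfkp (53.2 in pool E and 48.2 in pool F) Pfkm was higher in both pools. With only the peak whose summit was nearest a Pfkm TSS, the replicated value of Pfkm was 57.7, against 55.5 at Pfkl and 50.1 at Pfkp. By that peak Pfkm had 62.8 in pool E, against 58.8 at Pfkl, but 53.3 in pool F, against 58.1 at Pfkl.

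Enolase makes phosphoenolpyruvate. Eno3 encodes beta-enolase, the form of striated muscle, and Eno1 alpha-enolase, the form of most tissues. The Eno3 domain was the widest of the 10, at 17986 bp (percentile 99.7), against 6118 bp (percentile 92.4) at Eno1, the widest of the other forms. The pools differed most here, with 18193 bp (pool E) and 11784 bp (pool F) at Eno3, against 6173 and 6182 bp at Eno1. The difference between the genes was 11868 bp in the replicated list and 5602 bp in pool F alone, more than 1.5 times less. Eno3 remained the wider gene in both pools.

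The Eno3 domain also held the start sites of its neighbours. It spanned positions 70645151 to 70663136 of chromosome 11 and held 5 TSSs of Slc25a11, a mitochondrial carrier gene, 9 of Rnf167, a ubiquitin ligase gene, 4 of Pfn1, the gene of the actin-binding protein profilin, and 1 of the long non-coding RNA gene Gm12319. The nearest Pfn1 TSS was 2558 bp and the Gm12319 TSS 709 bp from that of Eno3. In pool F the domain began at 70650701 and did not hold the Slc25a11 and Rnf167 starts. Pool F still had a peak over Slc25a11 and Rnf167 starts, from -11.804 to -8.299 kb of the Eno3 start, with a signal value of 50.9. It stayed outside the domain because a gap wider than the joining limit of 1000 bp lay between. A single peak of 11218 bp covered Pfn1 and Eno3 together, and its summit lay 143 bp from a Pfn1 TSS and 2747 bp from the nearest Eno3 TSS. Its signal value of 55.7 (67.3 in pool E and 44.7 in pool F), against 29.5 at Eno1 (31.1 and 28.3), is that of a summit at the Pfn1 start, and no peak had its summit nearest to an Eno3 TSS.

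Counted downstream of the start site, the 2 enolase genes were close. The domain reached 5934 bp downstream at Eno3 and 5354 bp at Eno1 in the replicated list, but 5333 and 5510 bp in pool E and 5282 and 5330 bp in pool F, so the sign of the difference changed to -177 bp in pool E and to -48 bp in pool F. At the other 4 pairs the muscle form reached farther downstream in every list. The reach is counted to the edge of the domain, also where that lies past the end of the gene. This was so at Eno3, and at Pgam2 with 3159 bp in a gene of 2094 bp. Inside the gene, peaks covered 5312 bp at Eno3 and 5464 bp at Eno1, and 2094 bp at Pgam2 and 2204 bp at Pgam1. At Hk2 and Pfkm the domain ended inside the gene. The downstream reach was added as a measure after the data had been seen. Eno3 is a short gene of 5312 bp, and the peak covered 100% of it (99.5% in pool F), against 44.9% of the 12159 bp of Eno1. A gene body covered in full was found at 2.3% of marked genes, and 2 of the 10 isozyme genes were among them. These 2, Eno3 and Pgam2, are the shortest of the 10, and no share over genes of like length is given. For both enolase genes the RefSeq promoter window nearest to the start site follows, shown to compare their CG and E-box content, with CANNTG, the E-box read by the MyoD family of muscle factors, and the MEF2 motif in capitals.
Eno3, chr11:70656926-70657225 (plus strand): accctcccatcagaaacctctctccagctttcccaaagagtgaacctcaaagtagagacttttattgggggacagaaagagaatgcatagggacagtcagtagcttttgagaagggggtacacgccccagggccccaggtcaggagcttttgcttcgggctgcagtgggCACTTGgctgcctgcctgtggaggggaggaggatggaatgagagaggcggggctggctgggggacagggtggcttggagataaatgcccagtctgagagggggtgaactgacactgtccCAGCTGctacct
Eno1, chr4:150236458-150236757 (plus strand): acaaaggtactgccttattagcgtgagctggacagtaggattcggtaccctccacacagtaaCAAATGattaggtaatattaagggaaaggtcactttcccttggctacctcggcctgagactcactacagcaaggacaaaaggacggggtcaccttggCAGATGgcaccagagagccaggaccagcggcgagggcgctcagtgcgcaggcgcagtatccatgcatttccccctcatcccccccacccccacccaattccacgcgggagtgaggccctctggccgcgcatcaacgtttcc
The Eno3 window held 2 E-boxes and 3 CG dinucleotides, and the Eno1 window 2 E-boxes and 14 CG dinucleotides. Eno1 has 2 further RefSeq windows, with 0 E-boxes and 24 and 25 CG dinucleotides, and the nearer of them is 245 bp from the start site where the printed one is 244 bp away. Of all 32619 RefSeq promoter windows 72.3% held at least 1 E-box, so its presence sets neither gene apart. The MEF2 motif, the site of another family of muscle factors, was in neither window.

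**Figure D2:**
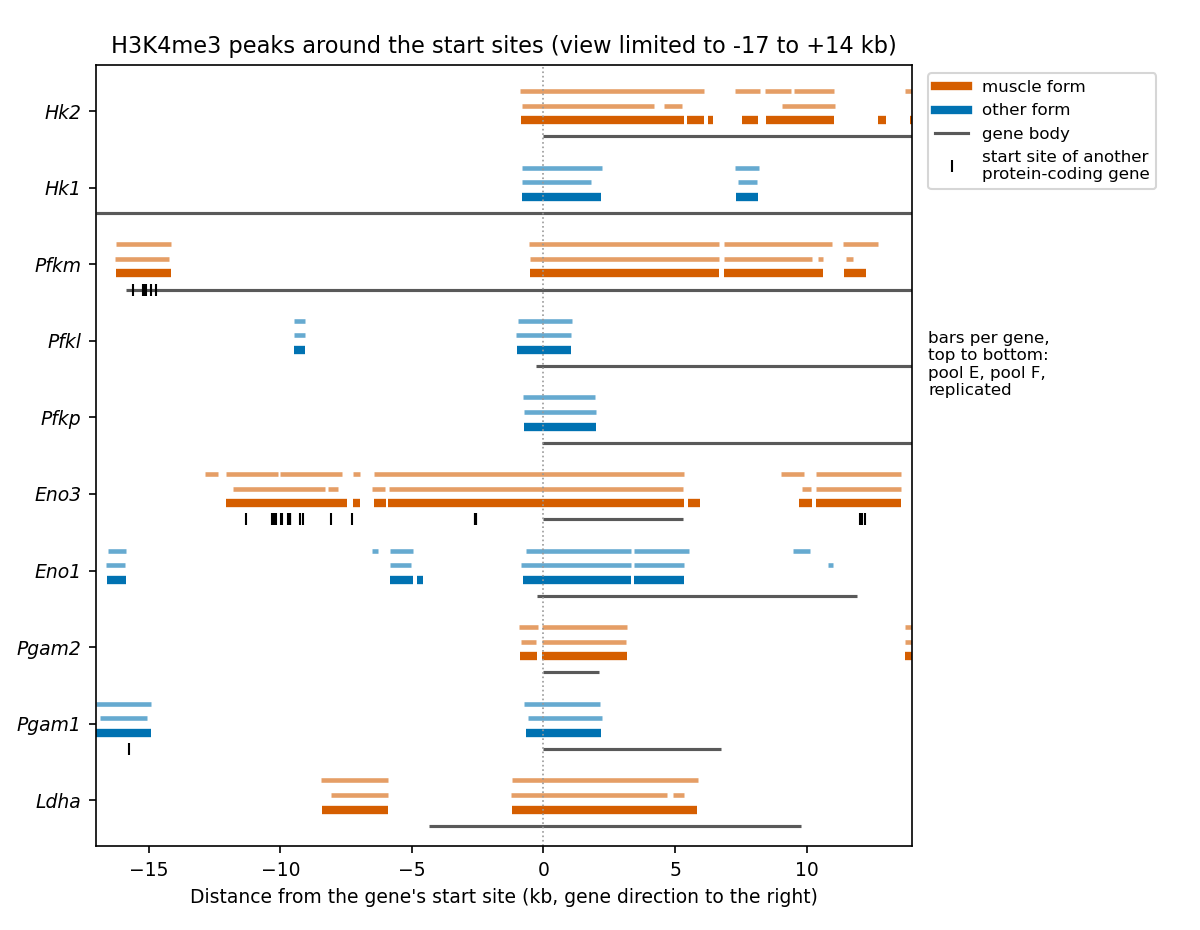
Peaks around the start site of each gene in pool E (top bar), pool F (middle bar) and the replicated list (thick bottom bar), by distance from the start site (kb, gene direction to the right), with the gene body as a grey line and start sites of other protein-coding genes as ticks. The orange bars of Hk2, Pfkm, Pgam2 and Ldha extend to the right of 0, into the gene, while the Eno3 bars also extend left over the ticks of its neighbours.

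Phosphoglycerate mutase shifts the phosphate that enolase then acts on. Pgam2 encodes the muscle subunit and Pgam1 the form of brain and most other tissues. The Pgam2 domain was 4080 bp wide (pool E) and 4006 bp (pool F), with a mean of 4043 ± 52.3 bp (SD, n = 2), against 2893 and 2808 bp at Pgam1, with a mean of 2851 ± 60.1 bp (SD, n = 2). This was the smallest of the 5 differences, 1195 bp in the replicated list, and still larger than the difference between the pools of 74 bp at Pgam2 and 85 bp at Pgam1. Counted by the widest single peak in place of the joined domain, the difference was 347 bp. Pgam2 is the shortest of the genes at 2094 bp, and its domain covered 100% of it and ran past its end, against 32.7% of the 6738 bp of Pgam1.

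In signal value the order was the other way round. Pgam2 had 27.2 in pool E and 35.6 in pool F, against 55.4 in pool E and 50.6 in pool F at Pgam1. The difference was -13.1 in the replicated list, where Pgam2 had 39.6 (percentile 38.3) and Pgam1 52.7 (percentile 68.1), and -28.2 in pool E alone. The Pgam2 summit lay 498 bp (pool E) and 196 bp (pool F) from the TSS. Pgam2 was thus the only muscle form of a pair with the lower signal value in the replicated list, and in each list it had the narrowest domain and the lowest signal value of the 5 muscle forms.

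At Pgam2 the called peaks left a gap just upstream of the start site. Its domain was made of a peak of 3205 bp over the gene and a peak of 644 bp upstream with a signal value of 3.46, parted by 204 bp at positions 5803779 to 5803982 of chromosome 11. The gap began 46 bp upstream of the TSS at 5803733, and it was present in both pools, 160 bp long (pool E) and 227 bp long (pool F). Only 96 of the 300 bases of its RefSeq promoter lay in peaks, whereas the nearest promoter windows of the other 9 genes were covered in full. No share over all marked genes is given for such a gap, so how unusual it is stays unknown. The window of Pgam2 is shown for what the gap holds, and that of Pgam1 beside it, with E-boxes and the MEF2 motif in capitals.
Pgam2, chr11:5803747-5804046 (minus strand): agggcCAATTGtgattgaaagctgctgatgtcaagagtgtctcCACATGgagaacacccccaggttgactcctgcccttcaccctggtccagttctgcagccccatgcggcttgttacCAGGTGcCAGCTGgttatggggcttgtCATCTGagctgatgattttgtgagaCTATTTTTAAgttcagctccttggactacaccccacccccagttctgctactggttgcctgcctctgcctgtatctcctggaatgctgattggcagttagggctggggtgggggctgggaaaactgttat
Pgam1, chr19:41911621-41911920 (plus strand): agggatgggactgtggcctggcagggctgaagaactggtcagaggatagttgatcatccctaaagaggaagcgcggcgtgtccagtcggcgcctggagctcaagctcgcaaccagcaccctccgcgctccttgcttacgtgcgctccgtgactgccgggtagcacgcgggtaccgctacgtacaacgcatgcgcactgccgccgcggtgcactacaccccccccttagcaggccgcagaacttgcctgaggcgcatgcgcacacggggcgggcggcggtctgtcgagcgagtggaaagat
The Pgam2 window held 5 E-boxes and the MEF2 motif CTATTTTTAA, which began at position -80 from the RefSeq start and lay in the gap in both pools at 5803867 to 5803876. Of the E-boxes 3 lay in the gap of the replicated list. The window held 1 CG dinucleotide, against 30 in that of Pgam1, which held neither motif. The MEF2 motif was in 3.11% of all promoter windows, and among the nearest windows of the 10 genes only in that of Pgam2. A match is a run of letters and not a measured binding site, and what left the gap was not tested.

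Lactate dehydrogenase turns pyruvate into lactate, and Ldha encodes its M subunit, abundant in fast muscle and present in many other tissues. Its domain measured 7071 bp (pool E) and 6547 bp (pool F), with a mean of 6809 ± 371 bp (SD, n = 2), and 7051 bp in the replicated list (percentile 94.7). The signal value was 65.4 in pool E and 57.2 in pool F, and 60.7 in the replicated list (percentile 94.0). The domain was a single peak there with its summit 59 bp from an Ldha TSS and no start site of another gene inside it. It reached 5848 bp downstream and covered 49.8% of the gene. No paralogue of Ldha was among the 10 genes. Ldhb, the H subunit of heart, named here after its value was seen, had a signal value of 34.5 and a domain of 4870 bp, with 4880 bp in the list of pool E but 2468 bp in that of pool F. The promoter of Ldha is shown for its ACGTG letters, the core of the element bound by hypoxia-inducible factors, in capitals on either strand (ACGTG or CACGT).
Ldha, chr7:46845554-46845853 (plus strand): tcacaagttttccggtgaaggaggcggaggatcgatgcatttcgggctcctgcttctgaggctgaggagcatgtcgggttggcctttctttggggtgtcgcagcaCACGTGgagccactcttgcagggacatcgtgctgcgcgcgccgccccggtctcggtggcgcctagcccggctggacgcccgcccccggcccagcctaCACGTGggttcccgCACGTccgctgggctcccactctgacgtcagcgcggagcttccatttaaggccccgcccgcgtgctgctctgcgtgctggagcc
ACGTG was matched 5 times on both strands in 3 places, since each of the 2 CACGTG sites reads as ACGTG on both strands and also counts as an E-box. Of all promoter windows 19.8% held ACGTG, and the nearest windows of Hk2, Pfkm, Hk1 and Pgam1 held it too. The window also held 3 GGGCGG letters, the GC box bound by Sp1, which 35.9% of all windows held. GC boxes were also in the nearest windows of Hk2, Pfkl, Pfkp and Pgam1, and in none of Pfkm, Eno3, Pgam2, Hk1 and Eno1, although both other windows of Eno1 held 3 each. TATAA and CCAAT, searched on both strands too, were in 24.98% and 37.6% of all windows, and among the nearest windows TATAA was in those of Pfkl and Pfkp and CCAAT in those of Hk2, Eno3, Pgam2, Pfkp and Eno1.

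**Figure D3:**
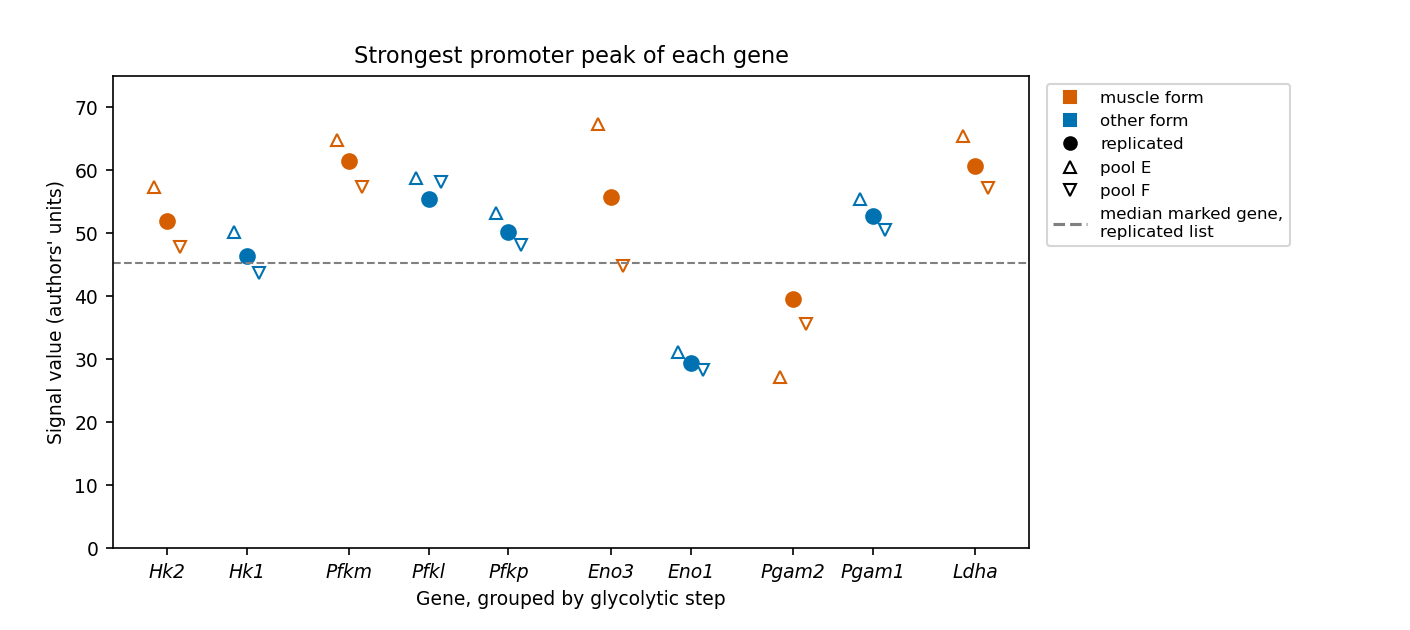
Signal value of the strongest peak near a start site (authors' units, vertical axis) of the 10 genes grouped by step (horizontal axis), with the symbols of the width plot, where values compare only within 1 list. The Pgam2 symbols lie below those of Pgam1 in every list, and Eno1 is the lowest of the other forms.

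Width and signal value did not go together at every gene. Eno1 had a domain at percentile 92.4 with a signal value at percentile 22.3, and Pfkl a signal value at percentile 77.7 with a width at percentile 37.8. Pfkm and Ldha were high in both, with widths at percentiles 99.1 and 94.7 and signal values at percentiles 96.4 and 94.0, the value of Pfkm being that of the peak it shares with Senp1. Peaks over the gene body and more than 1000 bp from every TSS of that gene were present at 4 of the 10 genes (Hk2, Hk1, Pfkm and Eno1), against 36.2% of marked genes. Upstream of the start site the domains spanned a narrow range, from 529 bp at Pfkm to 1202 bp at Ldha, with the exception of Eno3 at 12051 bp. Downstream they ran from 3159 to 12237 bp at the muscle forms and from 1044 to 5354 bp at the other forms.

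**Figure D4:**
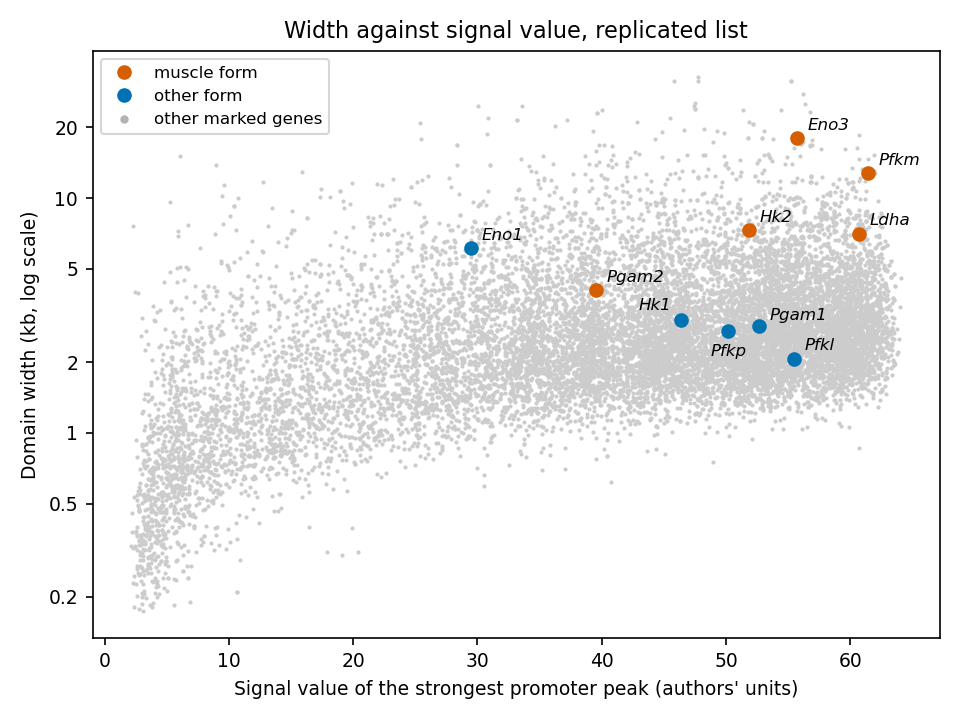
Domain width (kb, log scale) against the signal value of the strongest promoter peak (authors' units) for the marked genes of the replicated list (grey), muscle forms in orange and other forms in blue. Eno1 stands at 6118 bp with a signal value of 29.5, and Pfkl at 2070 bp with 55.5.

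Eno3 and Pgam2 had the CpG-poorer start site of their step, and Pfkm did at its downstream start. In the 1000 bp around the start site, the observed over expected CpG ratio was 0.140 at Eno3 (percentile 1.29), against 0.725 at Eno1. It was 0.328 at Pgam2 (percentile 9.06), against 0.973 at Pgam1 (percentile 95.1), and 0.482 at the downstream start of Pfkm, against 0.710 at Pfkl and 0.555 at Pfkp. At the upstream starts of Pfkm in the basic annotation it was 0.561 and 0.568, above Pfkp, so that order depended on the start. Eno3 and Pgam2 also had gene bodies covered in full by peaks, but they are the shortest of the 10 genes, at 5312 and 2094 bp. At hexokinase the order was the other way, with 0.819 at Hk2 and 0.554 at Hk1, and Ldha had 0.770. The median of marked genes was 0.719.

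**Figure D5:**
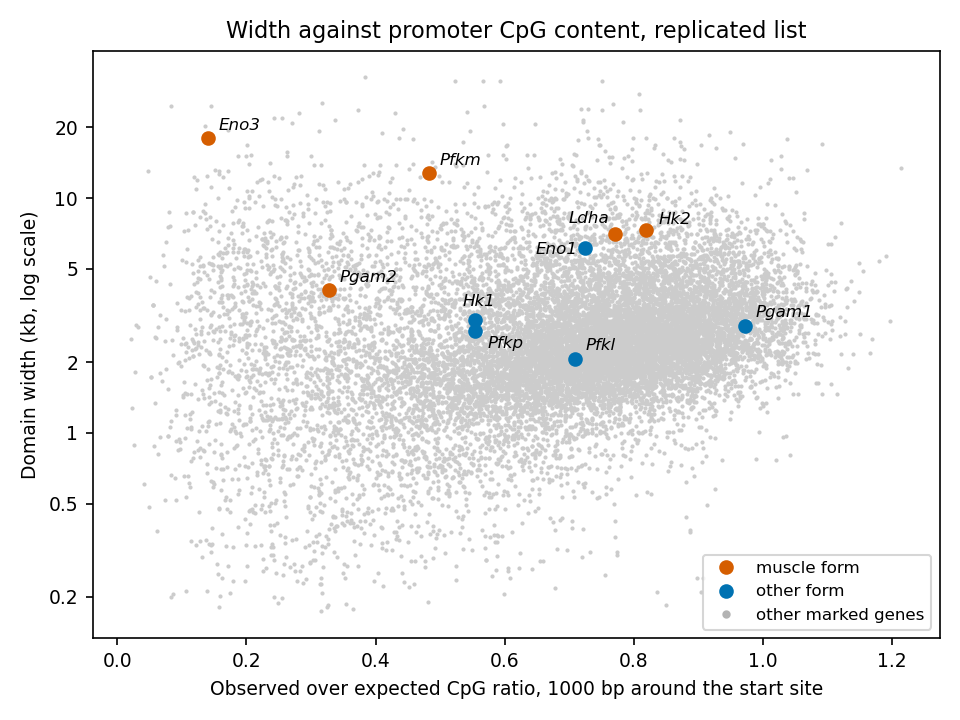
Domain width (kb, log scale) against the observed over expected CpG ratio in the 1000 bp around the start site for the marked genes of the replicated list (grey), muscle forms in orange and other forms in blue. Eno3 (0.140), Pgam2 (0.328) and Pfkm at its downstream start (0.482) lie left of the other forms, while Hk2 (0.819) and Ldha (0.770) do not.

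The 2 pools gave similar domains for most of these genes. The domain was wider in pool E for 8 of the 10 genes, against 76.8% of the genes marked in both pools, so this is close to the background. Over those 14930 genes the ratio of pool E to pool F had a median of 1.05 and an interquartile range of 1.00 to 1.12. Eno3 at 1.54, Hk1 at 1.16 and Hk2 at 1.15 lay above that range, and Pfkl at 0.971 and Eno1 at 0.999 below it. At Eno3, peaks at the starts of neighbours were joined to the domain in pool E but not in pool F. The domains of pool E and pool F overlapped at all 10 genes, also where at least 50% of both had to be shared.

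Genes of the rest of the pathway were read against the background of 69.3% of protein-coding genes marked, and of 50% of marked genes wider than the median. Of 11 other genes for the 5 steps 8 were marked, near that share, and 3 were wider than the median, and by signal value they were led by Bpgm (47.0, 3582 bp), the red cell mutase that makes 2,3-bisphosphoglycerate, Eno4 (41.9, 1904 bp), Pgam5 (39.1, 1679 bp), a mitochondrial phosphatase, and Eno2 (36.7, 2070 bp), the neuronal enolase. Hkdc1, Ldhc, the testis form, and Ldhal6b were unmarked. Of 10 genes for the other glycolysis steps 6 were marked, also near that share, and 5 were wider than the median. Pkm, the pyruvate kinase of muscle and most tissues, had 13951 bp and a signal value of 55.3, Gpi1, the glucose phosphate isomerase, 6767 bp and 54.2, Tpi1, the triose phosphate isomerase, 6595 bp and 52.6, and Pgk1, the phosphoglycerate kinase, 5308 bp and 39.1. The unmarked genes included Pklr, the liver form of pyruvate kinase, and Gapdhs and Pgk2, the testis forms of their enzymes.

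The genes that regulate phosphofructokinase through fructose 2,6-bisphosphate were all marked, 4 of 4, against 69.3% of protein-coding genes. All were wider than the median, as 50% of marked genes are by construction. Pfkfb3 had 10757 bp and a signal value of 59.3, Pfkfb2 4095 bp and 52.1 with its summit nearest to a TSS of Yod1, Pfkfb1, which encodes the muscle and liver isozymes, 10013 bp and 33.1, and Pfkfb4 4737 bp and 32.5. Downstream of the start site the domains of Pfkfb2 and Pfkfb4 reached 915 and 776 bp, below the median of 1427 bp. Those of Pfkfb1 and Pfkfb3 reached 7439 and 8245 bp. Of the glucose and lactate transporter genes 5 of 5 were marked and 4 were wider than the median, against the same 69.3% and 50%. Slc2a1, the transporter GLUT1 of most tissues, had 2355 bp and a signal value of 61.3, and Slc2a4, the insulin-responsive GLUT4, 5642 bp and 50.04. Slc2a3 (GLUT3) had 3039 bp and 51.7, and Slc16a1, the lactate carrier MCT1, 2988 bp and 45.9.

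The gene most like each muscle form was found by the distance between percentiles of width and signal value in the replicated, pool E and pool F lists, 6 values over 14930 genes. Ldha was nearest to Actg1, a cytoplasmic actin gene, at a distance of 1.69 percentile points (6877 bp and a signal value of 60.7). Pfkm was nearest to Gnai2, a G protein gene, at 2.26 points (12140 bp and 60.8), and Hk2 to Des, the desmin gene, at 3.58 points (6724 bp and 50.8). For Pfkm the width is that of the downstream domain, and the signal value that of the separate peak shared with Senp1. Pgam2 was nearest to Ppp1r16b, a phosphatase regulator gene, at 7.99 points (4450 bp and 37.2). Eno3 was at 0 from Pfn1, with which it shares its peak and domain. The measure is a likeness of 2 peak properties in 2 pools, given as a description.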

How the data were processed

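H3K4me3 ChIP-seq peaks of pool E, pool F and both pools were taken as deposited, as narrowPeak lists (mm10). Each sample's deposited text file says that the pool E, pool F and pooled lists hold pseudoreplicated peaks and the other list replicated ones, so the lists share reads and many peak positions. It also names a further input, not described. Which aligner and peak caller were used, and what the values are relative to, is not given in the sources used here. Signal values are the authors' own, as deposited, and from the deposited significance columns only the −log10 q-value was used. The deposited summit offset gave each summit. Depth is unknown and no value per library exists.

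Start sites came from GENCODE M21 and sequences from RefSeq on GRCm38.p6. Domains, distances, CpG ratios and motif matches were computed with Python 3.11.15, NumPy 2.4.6 and pyfaidx 0.9.0.4, and the steps were checked on simulated data. Lists were compared by counts and values with no test, since there was 1 condition with 1 list a pool. Named are the 10 genes, genes with a TSS inside their domains, up to 4 marked genes of highest signal value and all unmarked genes of each pathway list, and the nearest gene by percentiles. Of the genes this rule takes, 1 is not reported here. Aldoa was left out because 2 protein-coding genes carry the symbol. The genes and lists were chosen with earlier results of these data known. Alternatives were a TSS distance of 0 or 2500 bp, TSSs of basic transcripts, no joining or joining over 3000 bp, a −log10 q-value of at least 2, each list in place of the replicated one, and larger overlaps. The reach downstream of the start site and the peaks with the summit nearest to the gene's own TSS were alternatives chosen after seeing the data.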

Additional observations from a re-analysis of the deposited data

How the results depend on the processing

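The muscle form had the wider domain in 45 of 45 width differences recomputed under the alternatives. Many of these repeat the reported value, since TSS distances of 0 and 2500 bp, basic TSSs and the pooled list changed none. No alternative took the Pfn1 start out of the Eno3 domain, and Pfkm enters with both Pfkl and Pfkp. The counts of marked genes (10) and of genes wider than the median (9) were the same under each alternative run for them. So were the counts of genes wider in pool E (8) and of pairs wider at the muscle form (5). Gene body peaks away from the gene's own start sites were present at 3 to 5 genes. The signal value was higher at the muscle form in 3 to 4 pairs. The reach downstream of the start site, which at Eno3 and Pgam2 ran past the end of the gene, was longer in 4 to 5 pairs. The count of 3 by peaks with the summit nearest to the gene's own TSS leaves out the enolase pair, since Eno3 had no such peak. The reach difference between Eno3 and Eno1, 580 bp as reported, changed sign to -31 bp with peaks of a −log10 q-value of at least 2, to -48 bp in pool F alone and to -177 bp in pool E alone. The signal difference between Pfkm and Pfkl was 5.999 in pool E alone and changed sign to -0.683 in pool F alone. The cause was not tested beyond the construction of these settings. No paired analysis was possible because each pool has 1 list shared by its technical libraries and no result comes from a test. Peak lists without counts limit every value to where and how the authors called peaks.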
